A study of Mus musculus with 8 samples.

Results

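Genes of sterol synthesis, sterol transport and the liver X receptor (LXR) were examined in the fat that surrounds the mouse thoracic aorta (thoracic perivascular adipose tissue), in 4 samples labelled RictoraP2KO and 4 labelled control. The members were listed by name as 31 genes, 19 enzymes of sterol and isoprenoid synthesis and 12 genes of efflux, transport, storage, LXR and oxysterols. A gene was measured where the platform annotation gave a probe set that symbol alone, and its brightest probe set was used. This left 28 of the 18782 genes measured, 18 of synthesis and 10 of the others, while Acat2, Soat1 and Nr1h2 were not analysed here. With Soat1 missing, no gene of cholesterol ester storage was left in the group named for efflux and storage, which held Abca1, Abcg1, Apoe and Scarb1.

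RNA of each sample went onto its own Affymetrix Mouse Gene ST array, and values are log2 RMA signals (background-corrected, quantile-normalised, summarised per probe set). RictoraP2KO mice are named for loss of Rictor, which defines mTOR complex 2, through Cre driven by the aP2 (Fabp4) promoter; that promoter is active in fat cells, the series title also names brain, and Fabp4 is also expressed by macrophages. The controls had the genotype Rictorfl/fl, a floxed Rictor allele. All mice of both groups were male, aged between 17 and 22 weeks, and were killed at 9 am after a night without food, so both groups were measured in the fasted state. The labels name 4 samples a group without saying that each is 1 animal, so p-values measure only how these samples vary.

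Cholesterol is built from acetyl-CoA through mevalonate, farnesyl diphosphate, squalene and lanosterol, and the enzymes of this route are transcribed under the control of SREBP2, which is released from the endoplasmic reticulum when membrane sterol is low. LXR is a pair of nuclear receptors that bind oxysterols and switch on genes that move cholesterol out of the cell. SREBP2 and LXR therefore answer sterol depletion and sterol excess. Fat cells hold much of their cholesterol unesterified at the surface of the lipid droplet, and fat around the thoracic aorta in mice resembles brown fat.

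The promoters were also searched for short motifs. Genes picked by name as sterol enzymes share control by SREBP2, so motifs they share are not independent of that choice. RefSeq windows of GRCm38.p6, running from 250 bases before to 50 after the start site, were searched on both strands for TCACNCCAC, a form of the sterol regulatory element bound by SREBP, for CCAAT, bound by NF-Y, a partner of SREBP, and for CACGTG, the E-box. The search for TCACNCCAC was fixed beforehand, while those for CCAAT and CACGTG were added after values were seen. Of the 18 synthesis genes 15 had a window, and all 15 held CCAAT in at least 1 window, against 41.1% of the 27025 genes with a window. They included Ggps1 and Ebp, which differed by 0.04 each (RictoraP2KO minus control) where most synthesis genes were lower. Counted by window the share was 83.3% of 18, against 37.4% of all 32851 windows. Of the 10 transport and LXR genes 6 had a window, and 2 of them (33.3%) held CCAAT. TCACNCCAC was found in 1 of the 15 synthesis genes, Hmgcs1, against 1.44% of all genes, and in none of the 6 transport and LXR genes. Other forms of the sterol regulatory element were not searched, so genes without this string may still hold one. CACGTG was found in 3 of the 15 and 1 of the 6, against 8.09% of all genes. Windows of Fdps, Fdft1, Sqle, Abcg1, Scarb1, Npc1 and Stard4 were not in the table used.

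Hmgcs1 was chosen because it holds TCACNCCAC, and Abca1 as the efflux gene set against the synthesis genes. The next windows show these letters for both and for the 3 synthesis genes with a window and the smallest p-values. They are given 5′ to 3′ on the strand of the gene, with every match to TCACNCCAC, CCAAT (or ATTGG on the other strand) and CACGTG in capitals; no matches overlapped. Hmgcs1 lies at chr13:119690101-119690400 (plus strand), Cyp51 at chr5:4104648-4104947 (minus), Nsdhl at chrX:72918271-72918570 (plus), Idi1 at chr13:8885356-8885655 (plus) and Abca1 at chr4:53159846-53160145 (minus).
Hmgcs1: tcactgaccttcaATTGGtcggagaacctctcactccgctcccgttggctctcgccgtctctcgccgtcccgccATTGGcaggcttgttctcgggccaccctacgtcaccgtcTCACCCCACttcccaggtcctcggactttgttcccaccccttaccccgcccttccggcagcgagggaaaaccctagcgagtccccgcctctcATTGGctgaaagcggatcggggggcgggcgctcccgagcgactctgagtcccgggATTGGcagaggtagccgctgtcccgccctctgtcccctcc
Cyp51: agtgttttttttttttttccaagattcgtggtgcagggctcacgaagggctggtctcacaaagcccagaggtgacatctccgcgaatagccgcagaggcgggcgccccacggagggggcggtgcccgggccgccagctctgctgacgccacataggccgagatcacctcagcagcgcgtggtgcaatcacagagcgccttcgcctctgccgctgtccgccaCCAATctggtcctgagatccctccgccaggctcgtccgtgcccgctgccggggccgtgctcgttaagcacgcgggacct
Nsdhl: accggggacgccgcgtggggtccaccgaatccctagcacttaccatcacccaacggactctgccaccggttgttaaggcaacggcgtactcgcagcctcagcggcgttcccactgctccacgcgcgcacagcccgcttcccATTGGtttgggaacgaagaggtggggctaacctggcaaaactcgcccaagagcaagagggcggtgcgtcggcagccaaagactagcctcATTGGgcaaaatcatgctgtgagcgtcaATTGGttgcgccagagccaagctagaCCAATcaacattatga
Idi1: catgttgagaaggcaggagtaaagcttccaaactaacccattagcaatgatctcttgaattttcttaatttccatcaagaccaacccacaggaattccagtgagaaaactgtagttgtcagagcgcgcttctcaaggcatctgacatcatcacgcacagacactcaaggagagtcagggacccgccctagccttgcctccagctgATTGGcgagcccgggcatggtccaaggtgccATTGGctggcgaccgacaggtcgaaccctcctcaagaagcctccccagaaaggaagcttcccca
Abca1: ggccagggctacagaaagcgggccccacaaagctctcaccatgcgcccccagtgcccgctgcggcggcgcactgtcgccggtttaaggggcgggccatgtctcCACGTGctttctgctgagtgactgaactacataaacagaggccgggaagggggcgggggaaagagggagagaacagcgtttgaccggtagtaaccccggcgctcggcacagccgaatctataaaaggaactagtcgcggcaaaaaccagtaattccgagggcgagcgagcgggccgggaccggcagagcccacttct
In Hmgcs1 the TCACNCCAC match begins 137 bases before the start site, between CCAAT matches that begin 176 and 45 bases before it. Cyp51 has a single CCAAT, 29 bases before the start. Nsdhl has 4 and Idi1 has 2, the nearest upstream ones 20 and 14 bases before the start. Abca1 has no CCAAT in this window and an E-box 147 bases before the start. A match is a description of letters and does not show binding in this tissue.

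The arrays do not check the deletion itself. Rictor signals were 6.80, 6.66, 6.60 and 6.68 in the RictoraP2KO arrays, against 6.49, 6.56, 6.49 and 6.61 in the control arrays. The signal was thus higher by 0.14 (SE 0.063, limma adjusted p = 0.685, unadjusted 0.0479) where loss is labelled. Which exons were removed is not stated in the labels. Directions below rest on the labels of the arrays. Fat was well represented: of the 6 white and 6 brown fat cell markers measured, all but Lep lay above the 92nd percentile of probe set signals, with Ucp1 of brown fat at 99.8. Alb and Ttr of hepatocytes and Cyp11a1 and Hsd3b1 of steroid-making cells lay below the array median of 3.76, while the third marker of each of these lists, Apoa2 (3.88 in RictoraP2KO and 4.08 in control arrays) and Star (4.03 in RictoraP2KO and 4.08 in control arrays), lay a little above it. Signal of other tissues was uneven. As list means of log2 values centred on each gene, lung epithelium stood at 2.98 in control replicate 2, neurons at 1.23 in control replicate 3, and skeletal and cardiac muscle at 1.48 and 2.17 in RictoraP2KO replicate 2. Members whose difference moved by over 1.5 times without these 3 arrays are given that value too, beside the result or with the limits.

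Most synthesis enzymes stood lower in the arrays labelled RictoraP2KO, while the efflux genes Abca1, Abcg1 and Apoe stood higher, but no single gene passed the test. Of the 18 synthesis genes 16 had a negative difference (RictoraP2KO minus control) and 2 a positive one, with a median of -0.38 on the log2 scale. Over all 28371 probe sets the median difference was -0.00325, and 51.3% lay below 0 and 48.7% above it. With limma and Benjamini-Hochberg adjustment over all probe sets, 0 of the 28 members had an adjusted p under 0.05, against 0.00352% of all probe sets, which is 1 probe set. At an unadjusted p under 0.05, 6 of 18 synthesis genes were lower (33.3%) and 0 higher, where 3.42% of all probe sets were lower and 3.85% higher. The members were chosen with earlier results of these arrays known, so this comparison of shares is not an independent test. Without the 3 arrays named above the count was again 6, against 2.47% of all probe sets, but with Mvk and Lss in place of Idi1 and Sc5d. Among the other 10 members 2 were lower and 1 was higher by that measure. In whole tissue, fewer cells of a type and less RNA per cell cannot be told apart.

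**Figure D1:**
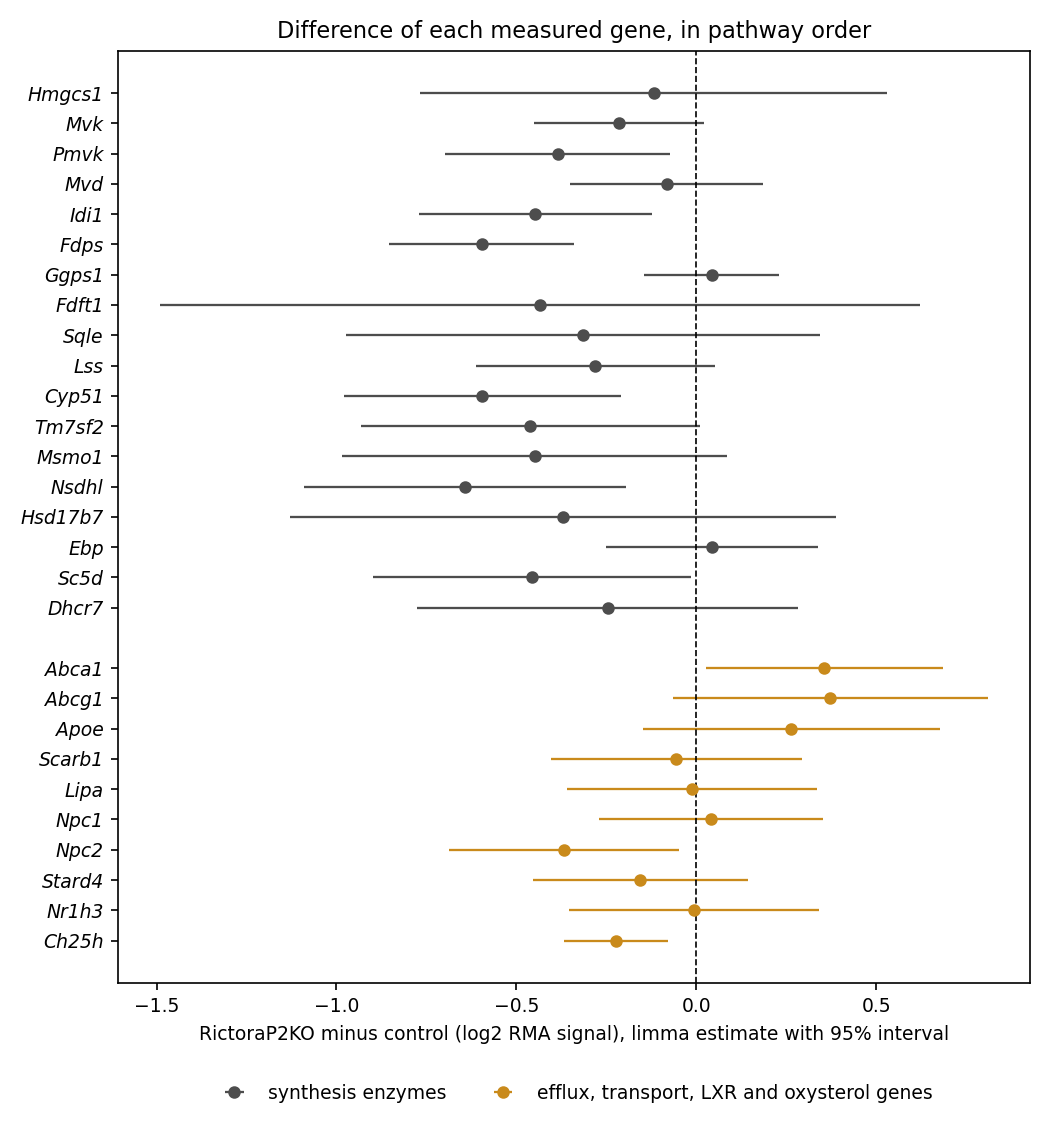
Difference between RictoraP2KO and control arrays for the 28 measured genes in pathway order, from mevalonate synthesis at the top to oxysterols at the bottom; points are limma estimates on the log2 scale and bars 95% intervals (n = 4 arrays a group). Synthesis differences run from -0.64 to 0.04, and those of the 10 other genes from -0.37 to 0.37.

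The route begins with Hmgcs1, which makes HMG-CoA from acetyl-CoA. It did not separate the groups, at 8.15, 8.66, 8.84 and 8.32 in RictoraP2KO arrays and 9.12, 8.92, 8.66 and 7.74 in control arrays. The highest and the lowest array were both controls, and the difference of -0.12 had a 95% interval from -0.77 to 0.53. Its sign turned without control replicate 1 (0.05) and without the 3 arrays (0.0055).

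From mevalonate to farnesyl diphosphate all 5 measured enzymes had negative differences, with a median of -0.38. Fdps, which condenses isoprenoid units to farnesyl diphosphate, had the smallest p of the members. Its signals were 5.05, 5.12, 5.49 and 5.08 in RictoraP2KO arrays, against 5.92, 5.87, 5.61 and 5.74 in control arrays. Every RictoraP2KO array lay below every control array, with RictoraP2KO replicate 3 closest to them. The means were 5.19 ± 0.21 in RictoraP2KO and 5.78 ± 0.14 in control arrays (SD, n = 4 each), a difference of -0.60 (SE 0.113; limma adjusted p = 0.4997, unadjusted 0.000543), or a ratio of 0.661 on the linear scale. Fdps was the only one of the 18 synthesis genes whose groups did not overlap downwards (5.56%), where 2.17% of all probe sets did so. None of the 28 members was without overlap upwards, where 2.08% of all probe sets were.

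Idi1, the isomerase that supplies the second isoprenoid unit to Fdps, read 5.32, 4.94, 5.66 and 5.30 in RictoraP2KO arrays and 5.96, 5.74, 5.71 and 5.61 in control arrays. Only RictoraP2KO replicate 3 reached into the control range. The difference was -0.45 (SE 0.143), and a separate Idi1 probe set gave -0.43 (SE 0.158). Pmvk, the phosphomevalonate kinase, read 4.92, 4.98, 5.12 and 5.19 in RictoraP2KO arrays and 5.39, 5.78, 5.08 and 5.50 in control arrays. Here control replicate 3 was the array that lay among the RictoraP2KO values, and the difference was -0.38 (SE 0.138). Unadjusted p-values were 0.0123 for Idi1 and 0.0214 for Pmvk, and the limma adjusted p-values were 0.651 and 0.663. Mvk, mevalonate kinase, differed by -0.22 (interval -0.45 to 0.02). Mvd, the decarboxylase that follows Pmvk, differed by -0.08 (-0.35 to 0.19), and its mean signal lay below the array median.

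Ggps1, which leads from farnesyl diphosphate to geranylgeranyl diphosphate for protein prenylation and so branches off the sterol route, differed by 0.04, with an interval from -0.14 to 0.23. Without the 3 arrays with signal of other tissues Ggps1 stood at -0.11. Fdps, the enzyme just upstream, differed by -0.60 (interval -0.85 to -0.34), and the difference between the 2 genes was not tested.

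The 3 enzymes from farnesyl diphosphate to lanosterol also had negative differences, with wide intervals. Fdft1, squalene synthase, the first enzyme committed to sterols, read 10.61, 8.42, 10.29 and 10.58 in RictoraP2KO arrays and 9.90, 10.49, 10.36 and 10.89 in control arrays. One array, RictoraP2KO replicate 2, lay far below the other 7, and it is the array with raised muscle markers, whose part in this value was not tested. The difference was -0.44 (SE 0.466) with it and 0.08 without it, so its direction rested on 1 array. Sqle, squalene epoxidase and a rate-limiting step, differed by -0.31 (SE 0.290), and by -0.077 without RictoraP2KO replicate 1. Lss, which closes the rings to lanosterol, differed by -0.28 (SE 0.147), and by -0.54 without the 3 arrays with signal of other tissues. RictoraP2KO replicate 1 was the lowest array for both and control replicate 1 the highest.

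The steps after lanosterol held the largest differences as a stretch of the route, with 7 of 8 genes negative and a median of -0.45. Cyp51, which removes a methyl group from lanosterol, read 4.91, 4.82, 5.34 and 5.16 in RictoraP2KO arrays and 6.004, 5.30, 5.81 and 5.50 in control arrays. The groups met only where RictoraP2KO replicate 3 exceeded control replicate 2 by a small margin. The means were 5.06 ± 0.24 in RictoraP2KO and 5.65 ± 0.31 in control arrays (SD, n = 4 each), a difference of -0.59 (SE 0.169; limma adjusted p = 0.649, unadjusted 0.00677).

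Nsdhl, a dehydrogenase of the complex that strips further methyl groups from the ring, read 7.64, 7.22, 8.13 and 7.72 in RictoraP2KO arrays and 8.71, 8.34, 8.08 and 8.15 in control arrays. Again RictoraP2KO replicate 3 alone reached the control range. The difference of -0.64 (SE 0.198) was the largest of the 28 members in size, a ratio of 0.640 (unadjusted p = 0.0102, limma adjusted p = 0.651). Sc5d, a late desaturase, read 7.29, 7.40, 7.96 and 7.55 in RictoraP2KO arrays and 8.33, 7.69, 8.30 and 7.72 in control arrays. The groups overlapped through RictoraP2KO replicate 3, and the difference was -0.46 (SE 0.194; limma adjusted p = 0.678, unadjusted 0.0439).

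The remaining genes of this stretch did not reach an unadjusted p of 0.05. Msmo1, the oxidase that works with Nsdhl, differed by -0.45 (SE 0.236) and Tm7sf2, a sterol reductase, by -0.46 (SE 0.208). Hsd17b7, the ketoreductase of the same complex, differed by -0.37 (SE 0.334) and had the widest interval of the stretch, from -1.13 to 0.39; it stood at -0.15 without RictoraP2KO replicate 1 and at -0.67 without control replicate 4. Dhcr7, which completes cholesterol, differed by -0.25 (SE 0.234), by -0.0072 without RictoraP2KO replicate 2 and by -0.12 without the 3 arrays. Ebp, the sterol isomerase, went the other way at 0.04 (interval -0.25 to 0.34; 0.24 without the 3 arrays), and it was lowest in control replicate 1, where most of its neighbours were highest.

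Some arrays stood high or low for many synthesis genes, and these positions did not follow the labels throughout. The order of the arrays differed between genes, with control replicate 4 the highest array for 2 and the lowest for 2. Agreement between genes in this order was not tested. Control replicate 1 was the highest array for 10 of 18 synthesis genes and above the gene's mean for 16. RictoraP2KO replicates 1 and 2 were the lowest array for 7 genes each. RictoraP2KO replicate 3 was above the gene's mean for 12 of 18 genes, where RictoraP2KO replicates 1, 2 and 4 were above it for 4, 5 and 3 genes. In the control arrays those counts were 16, 12, 13 and 12.

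**Figure D2:**
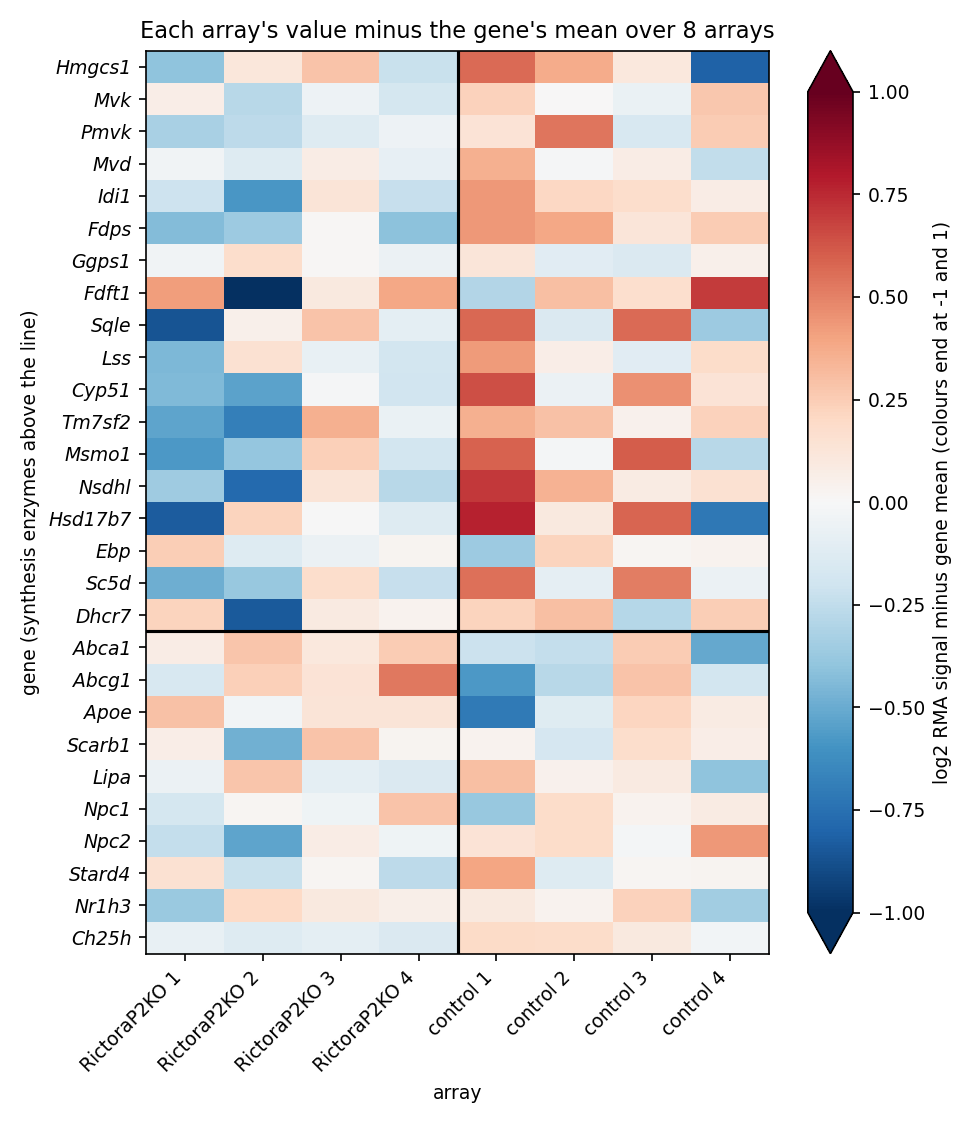
Log2 signal of each gene on each array minus the gene's mean over the 8 arrays, with RictoraP2KO arrays left of the vertical line and synthesis enzymes above the horizontal one; red is above and blue below the mean. Control replicate 1 is above the mean for 16 of 18 synthesis genes, and RictoraP2KO replicate 3 for 12.

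The synthesis list mean, the average over the 18 genes of these centred values, was -0.28, -0.36, 0.087 and -0.12 in RictoraP2KO arrays and 0.36, 0.15, 0.15 and 0.0070 in control arrays. RictoraP2KO replicate 3 lay above control replicate 4, so the groups overlapped by 1 array. The group means were -0.17 ± 0.20 in RictoraP2KO and 0.17 ± 0.14 in control arrays (SD, n = 4 each), a difference of -0.33. It lay between -0.42 and -0.27 when single arrays were left out, and at -0.29 without the 3 arrays with signal of other tissues. Under those settings 15 to 17 of the 18 genes were negative. Each of 13 genes was negative in all 8 omissions of 1 array; Hmgcs1, Mvd, Ggps1, Fdft1 and Ebp were not of 1 sign.

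Of the 4 genes measured in the efflux group 3 stood the opposite way, Abca1, Abcg1 and Apoe. This did not extend to the wider lists. The mean difference of all 10 transport and LXR genes was 0.021. In the list of other LXR targets 6 of the 7 measured had negative differences, but all 7 lay between -0.12 and 0.0065. Srebf1, an LXR target kept in another list, differed by 0.30. Abca1, the transporter that loads cholesterol onto lipid-poor apolipoprotein and a classical LXR target, read 8.38, 8.58, 8.41 and 8.57 in RictoraP2KO arrays and 8.09, 8.07, 8.56 and 7.79 in control arrays. Of the control arrays only replicate 3 lay inside the RictoraP2KO range. The means were 8.49 ± 0.10 in RictoraP2KO and 8.13 ± 0.32 in control arrays (SD, n = 4 each), a difference of 0.36 (SE 0.145; limma adjusted p = 0.668, unadjusted 0.0370).

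Abcg1, which passes cholesterol to mature high-density lipoprotein and is also an LXR target, read 6.40, 6.80, 6.70 and 7.08 in RictoraP2KO arrays and 5.98, 6.28, 6.85 and 6.37 in control arrays. Control replicate 3 was again the array that lay high, and the difference was 0.37 (SE 0.193; limma adjusted p = 0.735, unadjusted 0.0867). Apoe, the apolipoprotein that macrophages and fat cells secrete with cholesterol, read 10.81, 10.49, 10.65 and 10.65 in RictoraP2KO arrays and 9.81, 10.40, 10.73 and 10.60 in control arrays. Its difference of 0.26 (SE 0.182) rested largely on control replicate 1 and was 0.07 without it, and 0.50 without the 3 arrays. Scarb1, the receptor for high-density lipoprotein, differed by -0.06 (interval -0.40 to 0.29), and by 0.10 without RictoraP2KO replicate 2.

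**Figure D3:**
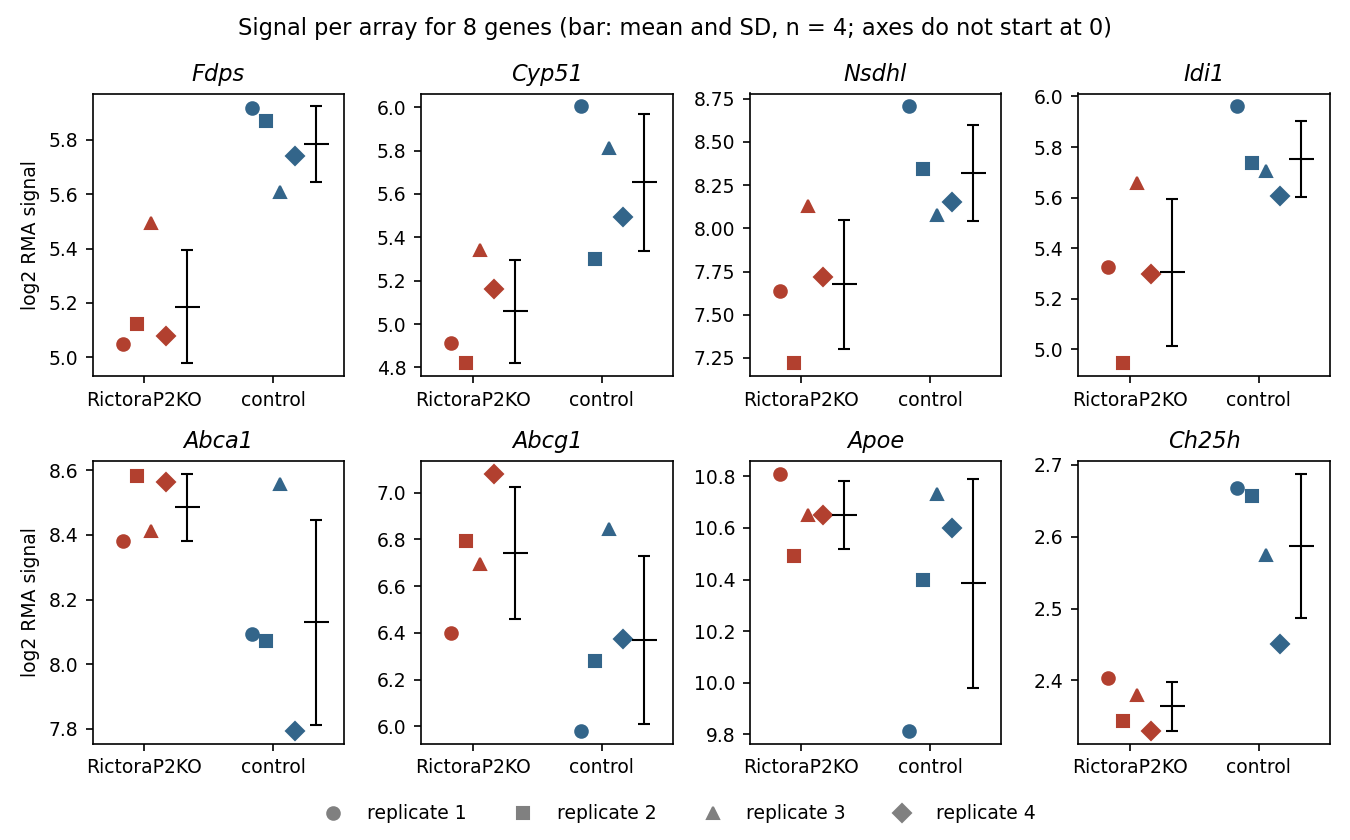
Log2 RMA signal on each array for 4 synthesis genes (top row) and for Abca1, Abcg1, Apoe and Ch25h (bottom row), RictoraP2KO left and control right; symbols mark the replicate number and bars the mean and SD of 4 arrays. Fdps and Ch25h are the genes without overlap between the groups. They are 2 of the 28 members (7.14%), where 2.17% of all probe sets were without overlap downwards. Control replicate 3 is the highest control array for Abca1, Abcg1 and Apoe.

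As a mean of Abca1, Abcg1, Apoe and Scarb1, the efflux group stood at 0.068, 0.00097, 0.16 and 0.23 in RictoraP2KO arrays and at -0.36, -0.20, 0.23 and -0.14 in control arrays. The difference of 0.23 compares with an SD of 0.10 among the RictoraP2KO and 0.25 among the control arrays. It was 0.15 without control replicate 1 and 0.41 without the 3 arrays with signal of other tissues. Synthesis minus efflux was -0.35, -0.36, -0.078 and -0.35 in RictoraP2KO arrays, against 0.72, 0.35, -0.080 and 0.14 in control arrays. RictoraP2KO replicate 3 and control replicate 3 met at nearly the same value, and the other arrays were apart by group. The mean difference of this contrast was -0.57, and between -0.69 and -0.42 when single arrays were left out. No p is given for these means, because the genes were chosen with earlier results of the same arrays known.

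**Figure D4:**
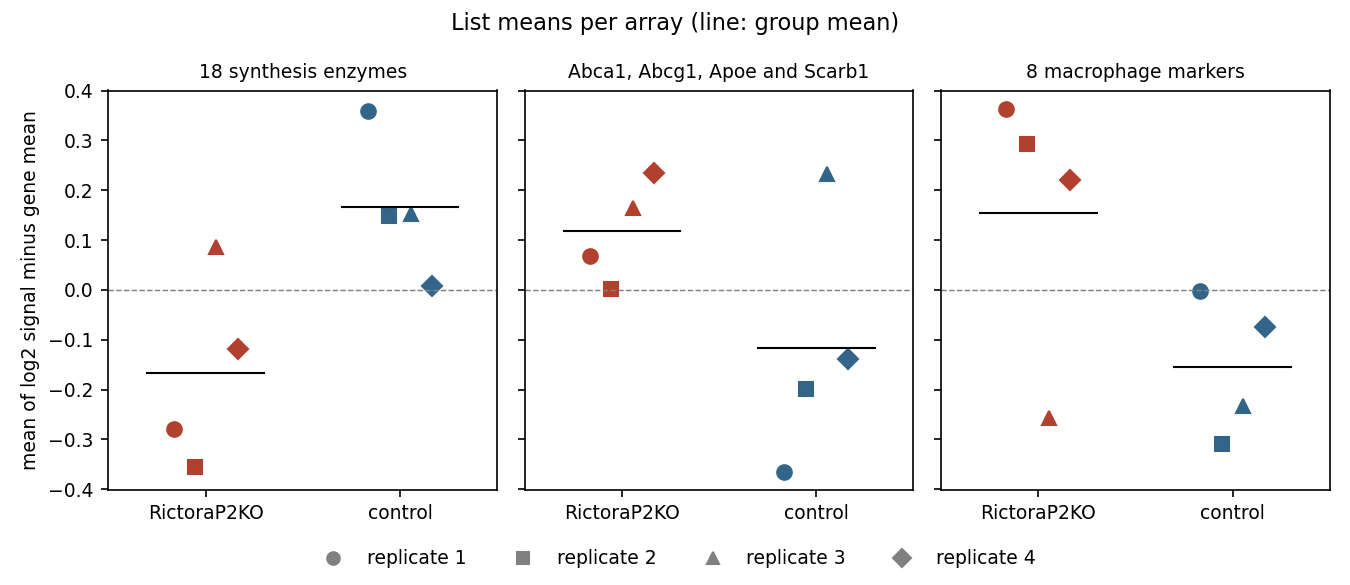
Mean of centred log2 values on each array for the 18 synthesis enzymes, for Abca1, Abcg1, Apoe and Scarb1, and for 8 macrophage markers, RictoraP2KO left and control right in each panel; lines are group means. RictoraP2KO replicate 3 is the highest RictoraP2KO array for synthesis (0.087) and the lowest for macrophage markers (-0.26). Its mean for Abca1, Abcg1, Apoe and Scarb1 is 0.16, inside the range of the other RictoraP2KO arrays.

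Abca1 and Apoe are abundant in macrophages, and macrophage markers stood higher in 3 of the 4 RictoraP2KO arrays. All 8 markers had positive differences, with a median of 0.33, and 0 of them passed with limma adjustment over all probe sets. At an unadjusted p under 0.05 3 of the 8 were higher (37.5%), Mrc1, Mpeg1 and C1qb, where 3.85% of all probe sets were. This list too was chosen with earlier results known, so its share is not an independent test. The list mean of the 8 markers was 0.36, 0.29, -0.26 and 0.22 in RictoraP2KO arrays and -0.0029, -0.31, -0.23 and -0.075 in control arrays. None of the 8 lay below the array median. On the same arrays the mean of Abca1, Abcg1, Apoe and Scarb1 was 0.068, 0.00097, 0.16 and 0.23 in RictoraP2KO arrays. In control arrays it was -0.36, -0.20, 0.23 and -0.14. The part of macrophages in the values of Abca1, Abcg1 and Apoe was not tested. White fat cell markers (6 measured) had a median difference of 0.013 and brown fat cell markers (6 measured) one of -0.035. RictoraP2KO replicate 1 had the highest list mean for white (0.35) and the lowest for brown fat cell markers (-0.71). That array was the highest for Lep (5.81) and the lowest for Elovl3 (6.84). It was not among the 3 arrays left out together. Without RictoraP2KO replicate 1 the synthesis mean difference was -0.30. Its part in the synthesis values was not tested.

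Genes that receive and release cholesterol inside the cell showed no common direction. Npc2, the soluble lysosomal protein that hands cholesterol to Npc1, read 7.22, 6.93, 7.53 and 7.42 in RictoraP2KO arrays and 7.59, 7.64, 7.44 and 7.89 in control arrays. The groups overlapped through RictoraP2KO replicate 3 and control replicate 3, and the difference was -0.37 (SE 0.141; limma adjusted p = 0.668, unadjusted 0.0289). Npc1 itself, the membrane partner, differed by 0.04 (interval -0.27 to 0.35), and Lipa, the lysosomal acid lipase that frees cholesterol from esters, by -0.01 (-0.36 to 0.34). Without the 3 arrays these differences were 0.17 and -0.048. Stard4, a cytosolic sterol carrier and SREBP2 target, differed by -0.16 (SE 0.131; -0.24 without the 3 arrays, -0.050 without control replicate 1), with a mean below the array median.

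The receptor itself did not separate the groups. Nr1h3, which encodes LXRα, read 7.60, 8.17, 8.07 and 8.03 in RictoraP2KO arrays and 8.06, 8.01, 8.20 and 7.62 in control arrays, a difference of -0.0073 with an interval from -0.35 to 0.34. Ch25h, whose product is an oxysterol that activates LXR and restrains SREBP2, was at 2.40, 2.34, 2.38 and 2.33 in RictoraP2KO arrays and 2.67, 2.66, 2.57 and 2.45 in control arrays. Every RictoraP2KO array lay below every control array, and the difference was -0.22 (SE 0.064; limma adjusted p = 0.649, unadjusted 0.00709). It was 1 of the 10 transport and LXR genes (10%) without overlap downwards, where 2.17% of all probe sets were. All 8 Ch25h values lay well under the array median of 3.76, where a signal may hold little of the transcript, so no fold is given.

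Other genes of the pathway were taken from lists, and 0 of them passed with limma adjustment over all probe sets. Of the SREBP control and lipoprotein receptor genes 8 of 11 were measured, 2 with negative and 6 with positive differences. Insig1, a sterol-regulated SREBP target that holds SREBP back, read 9.22, 8.98, 10.16 and 8.76 in RictoraP2KO arrays and 10.46, 9.85, 9.20 and 9.72 in control arrays. RictoraP2KO replicate 3 and control replicate 1 were its highest arrays, and the difference was -0.52 (SE 0.335). Srebf2, which encodes SREBP2, differed by -0.12 (SE 0.076). Srebf1, an LXR target that drives fatty acid synthesis, differed by 0.30 (SE 0.115; limma adjusted p = 0.668, unadjusted 0.0272), in the opposite direction to most sterol enzymes.

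Of the other LXR targets 7 of 9 were measured, and 6 had negative differences, with a median of -0.0755; those of smallest p were Abcg8 (-0.12) and Abcg5 (-0.0755), which form a sterol transporter together, and Smpdl3a (-0.10). Abcg8 and Abcg5 lay below the array median in both groups. Srebf1 is not counted in this list. Of the genes that use isoprenoids outside the sterol route 8 of 9 were measured, 3 negative and 5 positive. Among them Fntb, a subunit of protein farnesyltransferase, differed by -0.40 (SE 0.172; limma adjusted p = 0.681, unadjusted 0.0444). Pdss2, which builds the side chain of ubiquinone, differed by 0.14 and Fnta, the other subunit of that farnesyltransferase, by -0.14. All 5 oxysterol enzymes were measured, 4 negative and 1 positive, with the brain cholesterol hydroxylase gene Cyp46a1 at -0.11, the mitochondrial sterol hydroxylase gene Cyp27a1 at 0.09 and Cyp39a1 at -0.075; Cyp46a1 lay below the array median. Of 13 other transport and storage genes 12 were measured, 7 negative and 5 positive. Gramd1b, a carrier that moves cholesterol from the plasma membrane to the endoplasmic reticulum, differed by 0.65 (SE 0.292; limma adjusted p = 0.694, unadjusted 0.0525). Osbp, which exchanges sterol between membranes, differed by -0.11 and the transporter gene Abca7 by -0.15. Idi2 (0.09, below the array median) and Acat1 (0.018) were the measured genes of a short list of further synthesis genes.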

How the data were processed

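Thoracic perivascular fat was measured in 8 samples, 4 RictoraP2KO and 4 control, from 5 µg of total RNA each, per the labels' protocols. The authors deposited log2 values for 28371 probe sets, for which the submitters' processing notes name RMA and Affymetrix Power Tools 1.10.2. No genome build is given in the sources used here. The deposited log2 values ran from 1.04 to 12.52 with a median of 3.76 on each array, so a difference in total RNA would not be seen. The number of arrays limits the precision.

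Probe sets with exactly 1 symbol in the platform annotation (21158) were used to name genes, by the highest mean over 8 arrays. Groups were compared with limma 3.58.1 in R 4.3.3 (lmFit, eBayes, two-sided; no filter, no covariate; Benjamini-Hochberg over all probe sets, threshold 0.05; intervals at 95%). In simulated data for this comparison (28371 probe sets, 200 changed, 10 runs) limma recovered 54.9% of changes of 0.5 and 90.2% of changes of 1 on the log2 scale. Noise was normal and independent between probe sets, with each probe set's own spread. The changed probe sets were picked at random from all of them. These rates are therefore averages over all probe sets and do not give the power for the members. Members and lists were chosen with earlier results of these data known.

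The genes named were all measured members, Rictor, the regulators Srebf2 and Insig1, and up to 3 genes by p from each list of other pathway genes. The rule for promoters gave Hmgcs1; those of Cyp51, Nsdhl, Idi1 and Abca1, and the CCAAT and CACGTG searches, were added after values were seen. Alternatives were a filter on dim probe sets, array weights, further quantile normalisation, centring on the median, robust eBayes, limma-trend, a replicate block, probe sets averaged per gene, other thresholds and arrays left out.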

Additional observations from a re-analysis of the deposited data

Results flagged for a closer look

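In groups of 4 arrays, a sample was singled out where its gap to the nearest other array was too large a share of the group's range by Dixon's test, which chance does in about 1 in 20 groups; 64 groups were examined and 4 samples met this. Fdft1 in RictoraP2KO replicate 2 stood at 8.42, where the other RictoraP2KO arrays lay between 10.29 and 10.61. Fdps in RictoraP2KO replicate 3 stood at 5.49, above the 5.05 to 5.12 of the others. Dhcr7 in control replicate 3 stood at 6.18, below the 6.68 to 6.76 of the others. Synthesis minus efflux in RictoraP2KO replicate 3 was -0.078, where the others lay between -0.36 and -0.35.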

How the results depend on the processing

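No member passed an adjusted p of 0.05 in the main limma fit, under any of the other model, normalisation, filter and array settings, or at an adjusted p under 0.1. At an unadjusted limma p under 0.05 there were 9 members, 8 lower (28.6% of 28) and 1 higher (3.57%). Of all probe sets 3.42% were lower and 3.85% higher by that measure. Because the members were chosen with earlier results known, the 2 sets of shares are not an independent comparison. There were 2 members when the unadjusted p had to be under 0.01 and the difference at least 1.5-fold. The share of all probe sets under that stricter rule was not counted, so these 2 cannot be set against it. With the replicate block the synthesis difference was again -0.33 and that of the efflux group 0.23, with 0 members called and 0 of all probe sets, against 1 without the block. Deviations of same-numbered samples from their group means correlated between -0.15 and 0.087, and no RictoraP2KO sample correlated best with its own number, so the numbers were not taken to pair the samples. Over the omissions of 1 array, 0 to 5 of all probe sets were called and the smallest adjusted p of a member was 0.160 (Fdps, limma). The synthesis mean lay between -0.42 and -0.27, the efflux mean between 0.15 and 0.35, and synthesis minus efflux between -0.69 and -0.42. The mean of all 10 transport and LXR genes, 0.021, lay between -0.0013 and 0.071.

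Signs turned for members with differences near 0 or resting on 1 array. Over the omissions, the difference ran from -0.41 to 0.052 for Hmgcs1, from -0.18 to 0.022 for Mvd, from -0.0069 to 0.091 for Ggps1, from -0.65 to 0.084 for Fdft1 and from -0.069 to 0.13 for Ebp. It ran from -0.16 to 0.10 for Scarb1, from -0.15 to 0.086 for Lipa, from -0.078 to 0.11 for Npc1 and from -0.12 to 0.11 for Nr1h3. Array weights gave 0.014 for Scarb1 and 0.016 for Nr1h3. Without the 3 arrays with signal of other tissues, Hmgcs1 was at 0.0055, Ggps1 at -0.11, Fdft1 at 0.099, Scarb1 at 0.075 and Nr1h3 at 0.057. The cause was not tested. The members Mvd, Stard4 and Ch25h lay below the array median, and the filter on dim probe sets removes them.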
